A study of Mus musculus with 55 samples.

Results

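Genes whose products oppose Polycomb at histone H3 were followed in mouse islets: the H3K4 methylases Kmt2a, Kmt2b, Kmt2c and Kmt2d, menin (Men1), the H3K27 demethylases Kdm6a and Kdm6b, and the acetylases Crebbp and Ep300. These 9 genes were taken by name from 47937 genes counted by bulk RNA-seq in 16 libraries of whole islets. No cut on their values was used, but earlier results of these data were known. All 9 passed the filter on low counts. Wild-type (WT), heterozygous (HET) and βEedKO (KO; genotype Eed -/-) islets of C57B6/J mice were compared at 8 and 25 weeks, with 3 libraries in each group except for 2 of HET and 2 of βEedKO at 25 weeks. In βEedKO mice, floxed Eed was removed by Cre under the rat insulin promoter, so the deletion reaches β cells while the other cells of the islet keep Eed. The paper's methods name the Cre line as Tg(Ins2-cre)23Herr, while its list of resources names another Ins2-cre line. Libraries were from male mice, each of 1 to 2 animals except that the 25-week βEedKO libraries pooled at least 4, and whether the WT and HET mice carried the Cre is not given in the sources used here. Nothing shows that libraries of a group stem from separate litters, so the p-values measure the spread between these libraries.

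Polycomb repressive complex 2 (PRC2), of which Eed is a core subunit, places the repressive mark H3K27me3. The trithorax system works against it. Kmt2a and Kmt2b, with menin as a shared subunit, methylate H3K4 at promoters, while Kmt2c and Kmt2d act mainly at enhancers in complexes that also hold the demethylase Kdm6a. Kdm6a and Kdm6b remove H3K27me3, and Crebbp and Ep300 acetylate H3K27, a residue that cannot then be methylated. In islets menin is best known as the tumour suppressor lost in multiple endocrine neoplasia, and H3K27 acetylation marks the enhancers of β cell genes.

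The promoters matched ran from very rich in CG pairs (Kmt2c) to little above the median (Men1), and 4 across that range are shown to set them beside their chromatin states. The sequences are from RefSeq (build GRCm38.p6) and span 250 bases before to 50 after the start, written 5′ to 3′ on the strand of the gene, with each CG in capitals. RefSeq promoters matched 7 of the 9 genes; Kmt2b and Kdm6b were not matched. Shown are Kmt2c (chr5:25498734-25499033, minus strand), Crebbp (chr16:4213355-4213654, minus strand), Kmt2a (chr9:44881240-44881539, minus strand) and the first of 3 annotated promoters of Men1 (chr19:6334729-6335028, plus strand).
Kmt2c: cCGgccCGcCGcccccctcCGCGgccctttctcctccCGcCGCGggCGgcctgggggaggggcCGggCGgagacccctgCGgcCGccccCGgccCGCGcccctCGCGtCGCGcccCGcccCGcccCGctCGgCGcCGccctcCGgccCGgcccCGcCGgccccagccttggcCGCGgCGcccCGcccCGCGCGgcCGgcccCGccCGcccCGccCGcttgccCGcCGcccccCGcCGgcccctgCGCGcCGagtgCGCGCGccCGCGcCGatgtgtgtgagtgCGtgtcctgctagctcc
Crebbp: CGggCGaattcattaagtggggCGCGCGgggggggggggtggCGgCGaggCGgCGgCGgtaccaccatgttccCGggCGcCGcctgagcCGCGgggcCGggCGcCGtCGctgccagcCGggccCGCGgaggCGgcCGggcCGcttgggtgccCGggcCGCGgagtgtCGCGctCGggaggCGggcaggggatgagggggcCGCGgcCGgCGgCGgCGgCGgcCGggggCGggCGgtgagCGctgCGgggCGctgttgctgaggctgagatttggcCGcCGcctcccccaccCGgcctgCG
Kmt2a: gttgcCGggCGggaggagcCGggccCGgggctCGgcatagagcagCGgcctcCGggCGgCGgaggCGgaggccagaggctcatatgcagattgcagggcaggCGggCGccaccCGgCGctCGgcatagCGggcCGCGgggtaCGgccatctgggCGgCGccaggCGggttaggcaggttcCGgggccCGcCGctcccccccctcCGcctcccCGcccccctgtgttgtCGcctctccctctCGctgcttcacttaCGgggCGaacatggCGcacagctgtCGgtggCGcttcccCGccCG
Men1: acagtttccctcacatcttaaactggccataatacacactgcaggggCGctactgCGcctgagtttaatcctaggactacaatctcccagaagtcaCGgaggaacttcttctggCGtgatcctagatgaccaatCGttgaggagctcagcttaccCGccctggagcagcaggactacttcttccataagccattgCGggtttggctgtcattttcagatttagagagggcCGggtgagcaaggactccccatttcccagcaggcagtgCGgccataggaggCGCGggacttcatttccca

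The Kmt2c window held 56 CG pairs, more than all but 0.195% of 32851 promoters of this length, which had a median of 7. Crebbp held 49, Kmt2a 36, Ep300 30, Kmt2d 27 and Kdm6a 21. Men1 was the poorest of those matched, with 11 in the window shown and 16 in each of the other two, and 41.4% of all promoters held 11 or more.

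In the segmentation of WT islets, 200-bp bins carry letters from histone marks; A and B are active start sites, C their flank, G transcribed gene bodies, K to M bivalent chromatin with both active and repressive marks, and N to P Polycomb-repressed chromatin. It covers autosomes, so Kdm6a on the X chromosome has no state. Of the other 8 genes, the GENCODE start of Kmt2a, Kmt2b, Kmt2c, Crebbp and Ep300 lay in state A, that of Kmt2d in B, and those of Men1 and Kdm6b in C. State A is found at 30.22% of 20445 protein-coding start sites, state B at 13.78% and state C at 1.643%, so states A and B at a start were common and C was not. The other two starts that RefSeq gives Men1, further into the gene, lay in B. For Crebbp the RefSeq start (4213404) was further into the gene than the GENCODE start (4213997), and it also lay in state A. The same held for Ep300 (81586214 against 81585351). Runs and flanks below are given at the GENCODE starts.

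The unbroken run of states A to C around the start was 3000 bp in Kmt2a and in Kmt2c, longer than in 93.06% of 9332 genes with such a start, 2600 bp in Ep300, 2200 bp in Kmt2b, 2000 bp in Kmt2d, 1800 bp in Crebbp and 1600 bp in Kdm6b. In Men1 it was 1200 bp, equal to the median of those genes. State G was the most frequent state over the body of all 8 genes, and active states (A to J) covered from 91.7% of the body in Men1 to 100% in Kdm6b, against a median of 94.1%. Polycomb states N to P covered 8597 of the 10000 bases before the start of Crebbp, 4096 before Kmt2a and 3800 before Kmt2b, where genes with an active start had a median of 1000, and none before Kmt2c. Bivalent states followed in the first 3 kb of 7 of the 8 genes, with a total from 400 bp in Men1 to 1400 bp in Kmt2d, where state B interrupted them. Of genes with an active start, 87.54% had some.

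**Figure D1:**
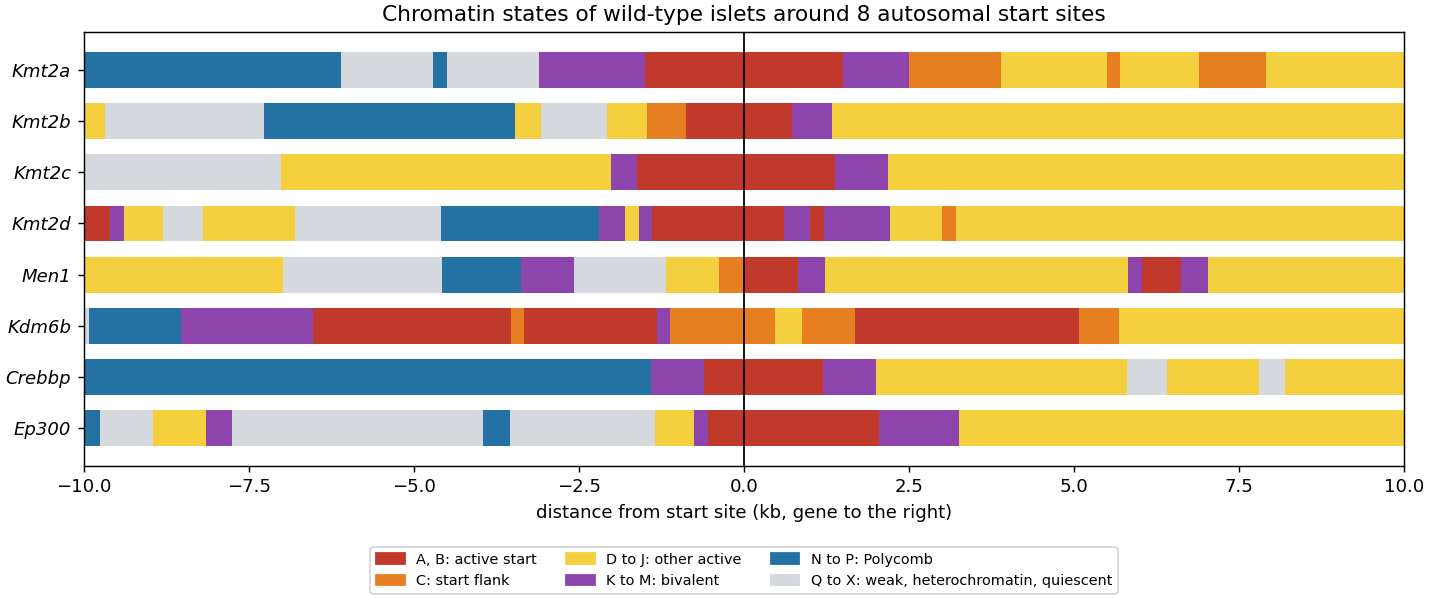
Chromatin states of wild-type islets from 10 kb before to 10 kb after the GENCODE start sites of the 8 autosomal genes, with distance in kb on the horizontal axis and colours for classes of state. Each start lies in active states (red or orange), and Crebbp has Polycomb states (blue) over 8597 of the 10000 bases before it.

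The libraries held 4645393 to 22925359 counted reads, and levels are given as CPM (counts scaled to a common library size) after TMM scaling. Eed was lower in every βEedKO library than in every WT library of its age. Its CPM was 29.4 ± 4.89 (SD, n = 3) in WT and 14.4 ± 0.813 (n = 3) in βEedKO at 8 weeks, and 23.2 ± 4.66 (n = 3) and 14.9 ± 0.954 (n = 2) at 25 weeks, with edgeR adjusted p of 0.0881 (0.00144 in DESeq2) and 0.142; counts sum over all exons and all islet cells. HET islets had 18.3 ± 1.94 (n = 3) at 8 weeks and 16.6 ± 0.407 (n = 2) at 25 weeks. β cell markers summed to 122324 to 218493 CPM in WT at 25 weeks and to 13874 to 17204 in βEedKO, with 7 of 8 lower by the test. Mesenchymal markers summed to 83.2 to 116 CPM in WT and 229 to 332 in βEedKO at 25 weeks (3 of 5 higher), and duct markers to 219 to 283 and 530 to 597 CPM (2 of 4 higher). In such bulk samples fewer cells of a type and less RNA per cell cannot be told apart. Acinar markers summed to 11860 CPM in one 25-week βEedKO library and 386851 in the other, and to 23012 to 211920 CPM elsewhere; their part in the results was not tested.

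None of the 9 genes passed the test between βEedKO and WT at either age, where 0.434% of 18685 genes did at 8 weeks and 6.60% at 25 weeks (edgeR quasi-likelihood test, Benjamini-Hochberg adjusted p under 0.05). At 25 weeks the fitted difference was below 0 for all 9, from -0.60 (log2) in Ep300 to -0.094 in Men1, with a median of -0.32 beside 0.029 over all genes; with library size alone as the scale the median of all genes was 0.27 and 6 of the 9 were above 0, though each stayed below that median. At 8 weeks 8 of the 9 were below 0, with a median of -0.18 beside 0.00388, and with library size alone 4 of those 8 turned positive. None had an unadjusted p under 0.05 at either age, where 1470 of all genes did at 8 weeks and 3791 at 25 weeks. DESeq2 called 0 of the 9. The 95% intervals were wide and reached below -1 (log2) in 6 of the 9 at 8 weeks and in 7 at 25 weeks, so for those genes a fall of that size was not excluded. At each age 2 of the 9, Kmt2d and Kdm6b, also reached above 1, so a rise of that size was not excluded for them. With the replicate number as a block 0 of all genes passed at 8 weeks (1126 at an unadjusted p under 0.05) and 1027 at 25 weeks.

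**Figure D2:**
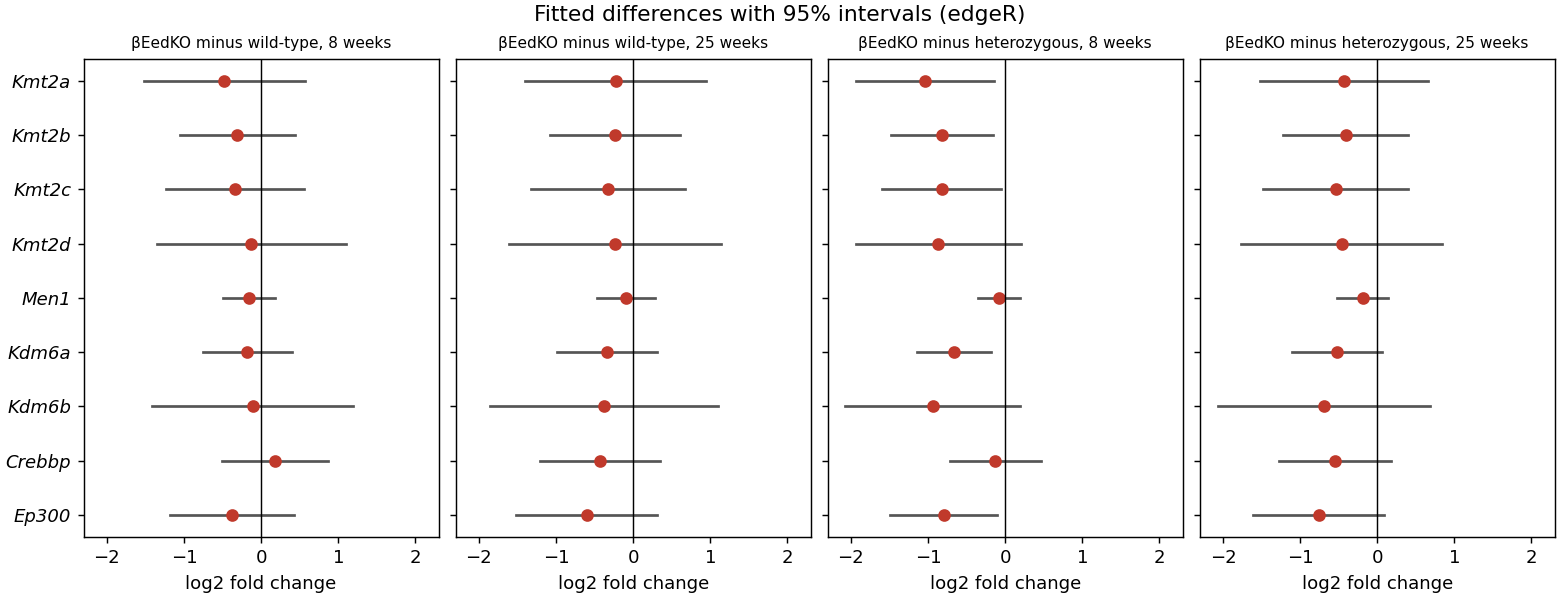
Fitted log2 fold changes (points) with 95% intervals (lines) for the 9 genes, for βEedKO minus wild-type and βEedKO minus heterozygous islets at each age. Men1 has the narrowest interval in every panel, and against heterozygous islets at 8 weeks the intervals of Kmt2a, Kmt2b, Kmt2c, Kdm6a and Ep300 lie below 0 before adjustment. In that comparison 4704 of 18828 genes had an unadjusted p under 0.05, in either direction. With library size alone 6 values at 25 weeks and 4 at 8 weeks against wild type turn positive, as do those of Men1 and Crebbp against heterozygous at 8 weeks.

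The promoter methylase Kmt2a, the gene also called Mll, had the most reads of the set. At 8 weeks its CPM was 135, 138 and 243 in WT, 269, 242 and 257 in HET, and 187, 112 and 74.6 in βEedKO. At 25 weeks it was 114, 345 and 334 in WT, 328 and 306 in HET, and 172 and 299 in βEedKO. WT and βEedKO overlapped at both ages, while βEedKO lay below HET at both. At 25 weeks WT and βEedKO overlapped in all 9 genes, where βEedKO lay wholly below WT in 15.9% of all genes. Against WT the log2 fold change was -0.48 (SE 0.471, adjusted p = 0.903, 95% interval -1.52 to 0.57) at 8 weeks and -0.23 (SE 0.528, adjusted p = 0.866, -1.40 to 0.94) at 25 weeks. The sign at 25 weeks turned without βEedKO replicate 2 (0.097), with the replicate block (0.14) and without WT replicate 3 (0.00226). Its paralogue Kmt2b, which marks many CpG-rich promoters, ranged from 35.7 to 105 CPM over the 16 libraries, with log2 fold changes of -0.31 (adjusted p = 0.915) and -0.24 (adjusted p = 0.793) against WT.

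The enhancer methylases behaved much as Kmt2a did. Kmt2c ranged from 53.8 CPM in a βEedKO library of 8 weeks to 211 CPM in a HET library of 25 weeks, with differences from WT of -0.34 (adjusted p = 0.930) and -0.32 (adjusted p = 0.761; 0.025 without βEedKO replicate 2). Kmt2d had the widest range of the 9, from 37.5 to 209 CPM or 5.59-fold. Among its 3 WT libraries at 8 weeks it was 103, 42.4 and 113 CPM, and among βEedKO 144, 56.2 and 37.5, so that the groups overlapped almost wholly. The difference was -0.13 at 8 weeks (adjusted p = 0.985, 95% interval -1.35 to 1.10) and -0.23 at 25 weeks (adjusted p = 0.883). Its sign at 8 weeks turned without WT replicate 4 (0.13), βEedKO replicate 4 (0.063) or βEedKO replicate 5 (0.20), and at 25 weeks without WT replicate 3 (0.019) or βEedKO replicate 2 (0.00596).

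Men1 stood apart from the rest by how little it varied. Its CPM at 8 weeks was 42.6, 40.4 and 45.5 in WT, 41.2, 37.2 and 43.4 in HET, and 37.1, 39.4 and 38.8 in βEedKO. At 25 weeks it was 33.6, 32.2 and 33.3 in WT, 33.5 and 39.8 in HET, and 32.6 and 31.6 in βEedKO. The highest of the 16 was 1.44 times the lowest. The SD of log2 CPM within groups was 0.0883, smaller than in all but 0.2% of 1000 genes of like level, whose median was 0.291. All 3 βEedKO libraries at 8 weeks lay below all 3 of WT, as 4.86% of all genes did, by a log2 difference of -0.16 (SE 0.150, adjusted p = 0.896, 95% interval -0.49 to 0.18), which turned to 0.033 with library size alone. At 25 weeks the difference was -0.094 (SE 0.169, adjusted p = 0.819, 95% interval -0.47 to 0.28). At both ages the interval of Men1 thus stayed between -0.49 and 0.28.

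With age none of the 9 passed, and Men1 alone had a fitted difference below 0. All 3 of its WT libraries of 25 weeks lay below all 3 of 8 weeks, as 8.95% of all genes did, with a log2 difference of -0.37 (SE 0.151, adjusted p = 0.489). With the replicate number as a block Kdm6a (-0.090) and Kdm6b (-0.86) were below 0 in WT too. Averaged over WT and HET it was -0.26 (SE 0.0952, 95% interval -0.47 to -0.056, adjusted p = 0.415), a comparison chosen after its levels were seen, in which 0.0850% of genes passed and none of the 9. The other 8 were above 0 with age in the same fit, from 0.25 in Kmt2b to 0.64 in Kmt2d, except that Kdm6b turned to -0.39 with the replicate number as a block. Crebbp was at 0.62 (SE 0.204, 95% interval 0.18 to 1.06, adjusted p = 0.384), its WT libraries going from 38.3, 33.8 and 53.9 CPM to 41.9, 81.7 and 78.3.

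The demethylase Kdm6a, the partner of Kmt2c and Kmt2d, ranged from 28.6 to 58.6 CPM. At 8 weeks it was 30.9, 32.7 and 42.7 in WT, 53.7, 46.8 and 48.3 in HET, and 30.4, 32.0 and 31.8 in βEedKO. At 25 weeks it was 28.6, 57.6 and 56.1 in WT, 58.6 and 53.7 in HET, and 38.7 and 39.5 in βEedKO. The βEedKO values were close together at each age and overlapped with WT at both, with differences of -0.18 (SE 0.261, adjusted p = 0.946) and -0.34 (SE 0.295, adjusted p = 0.593). The stimulus-induced demethylase Kdm6b spread far more, between 38.4 and 198 CPM, and its SD within groups exceeded that of 95.4% of genes of like level. At 25 weeks it was 38.4, 177 and 198 in WT and 52.4 and 170 in βEedKO, a difference of -0.37 (SE 0.666, adjusted p = 0.818) that turned to 0.22 without βEedKO replicate 2. At 8 weeks the difference was -0.11 (adjusted p = 0.989) and turned without WT replicate 4 (0.25) or βEedKO replicate 1 (0.074). An antisense transcript, Kdm6bos, shares 286 of the 6954 exon bases of Kdm6b, and reads of both strands cannot be told apart where strand was not used.

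Ep300 and Crebbp, the paired acetylases, had fitted differences of opposite sign at 8 weeks. Ep300 was 79.4, 73.0 and 105 CPM in WT, 126, 113 and 108 in HET, and 83.5, 68.8 and 46.8 in βEedKO, a difference from WT of -0.37 (SE 0.364, adjusted p = 0.899). Crebbp was 38.3, 33.8 and 53.9 in WT, 51.5, 47.5 and 56.9 in HET, and 61.1, 47.3 and 34.4 in βEedKO, a difference of 0.18 (SE 0.310, adjusted p = 0.961) that turned to -0.031 without βEedKO replicate 1. At 25 weeks both were below WT, Ep300 by -0.60 (SE 0.413, adjusted p = 0.467) and Crebbp by -0.43 (SE 0.351, adjusted p = 0.558). For Crebbp the effect at 25 weeks differed from that at 8 weeks by -0.60 (SE 0.468, adjusted p = 0.875), where 0.198% of genes and none of the 9 passed.

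Because both acetylases are measured in the same library, their balance does not depend on its depth or scaling. The log2 ratio of Ep300 to Crebbp, in RPKM (CPM per kilobase of exon), was 0.98, 1.03 and 0.88 in WT at 8 weeks, 1.21, 1.17 and 0.85 in HET, and 0.37, 0.46 and 0.37 in βEedKO. All 3 βEedKO libraries lay below all 6 of the others, but the share of other gene pairs that separate so was not counted. At 25 weeks the ratio was 0.43, 0.86 and 0.85 in WT, 0.81 and 0.82 in HET, and 0.52 and 0.66 in βEedKO, and βEedKO and WT overlapped through WT replicate 2, the shallowest library. The difference between βEedKO and WT was -0.56 at 8 weeks (exact two-sided permutation test, p = 0.1, the smallest that 3 against 3 allows) and -0.12 at 25 weeks (exact p = 0.6). With libraries permuted within age and both ages averaged it was -0.34 (exact p = 0.03, 0.12 adjusted over the 4 pairs of paralogues compared), and with HET added to the controls -0.39 (exact p = 0.0017, adjusted 0.0068). Against WT and HET together it was -0.62 at 8 weeks (exact permutation p = 0.012, adjusted 0.048). At 25 weeks it was -0.16 (exact permutation p = 0.38, adjusted 0.86), and βEedKO overlapped with these controls. These ratios were chosen after values had been seen, and no adjustment was made over the ages and choices of control. The libraries lowest in long transcripts at 25 weeks had the lowest ratio of their groups (0.43 in WT replicate 2 and 0.52 in βEedKO replicate 2), while the lowest of all, βEedKO replicate 5 of 8 weeks, was at 0.37 like another of its group; the part of that level in the ratio was not tested.

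The other 3 pairs overlapped between βEedKO and WT at both ages. The group means of the log2 ratio ran from 0.46 to 0.92 for Kmt2a over Kmt2b, from -0.091 to 0.41 for Kmt2c over Kmt2d, and from -1.95 to -1.50 for Kdm6a over Kdm6b. Within age, βEedKO differed from WT by -0.059 (exact permutation p = 0.76), -0.15 (exact p = 0.525) and -0.023 (exact p = 0.945).

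**Figure D3:**
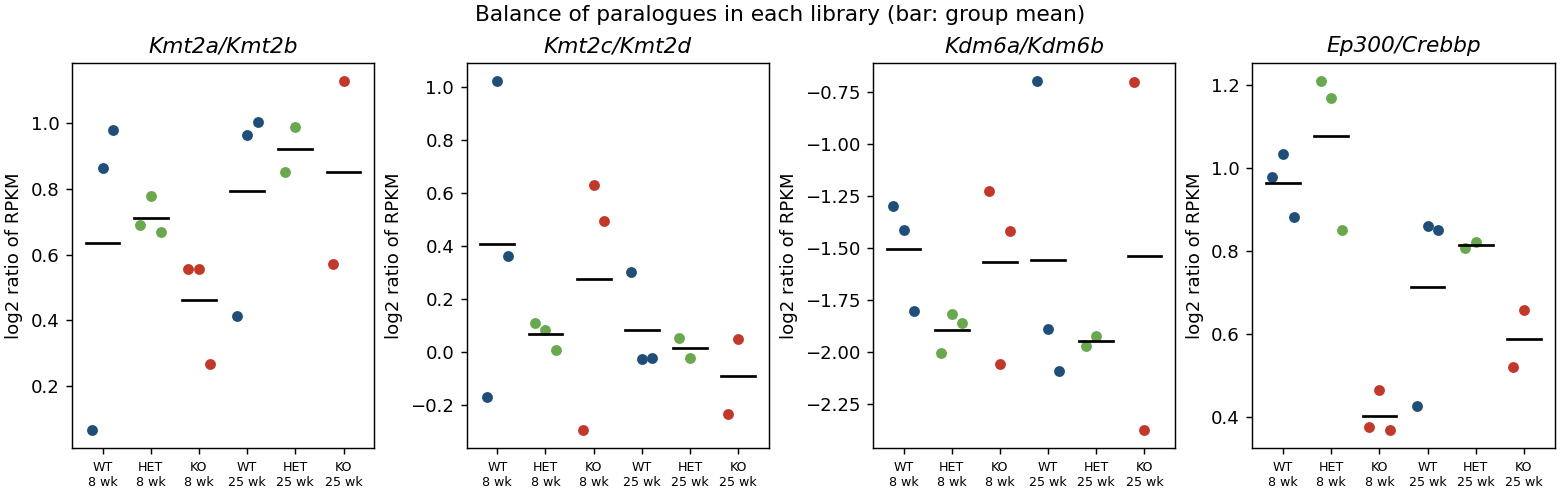
Log2 ratio of RPKM within each of 16 libraries for the 4 pairs of paralogues (points; bars are group means; WT blue, HET green, KO red). For Ep300 over Crebbp the 8-week βEedKO libraries lie at 0.37 to 0.46, below the 0.85 to 1.21 of the other 6 libraries of that age.

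Per length of exon, WT islets at 8 weeks had most Kdm6b (12.4 ± 4.70 RPKM, SD, n = 3), Men1 (11.2 ± 0.665) and Kmt2a (10.3 ± 3.69), followed by Kmt2b (6.56 ± 1.77), Ep300 (6.01 ± 1.18), Kmt2c (5.40 ± 1.64), Kmt2d (4.31 ± 1.91), Kdm6a (4.23 ± 0.757) and Crebbp (3.10 ± 0.779). Of neighbours in this order, Kmt2a and Kmt2b alone did not overlap, at 8.12 to 14.6 and 4.53 to 7.77 RPKM. Crebbp was the lowest of the 9 in all 6 groups, though with the longest transcript as the length Kmt2d was below it in βEedKO at 8 weeks. In WT at 25 weeks Kdm6b (19.8 ± 12.5 RPKM) and Kmt2a (15.9 ± 7.84) were the highest and all neighbours overlapped. When the longest transcript replaced all exons as the length, Men1 came before Kdm6b at 8 weeks in WT and βEedKO, while Kdm6b stayed first in the other 4 groups.

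**Figure D4:**
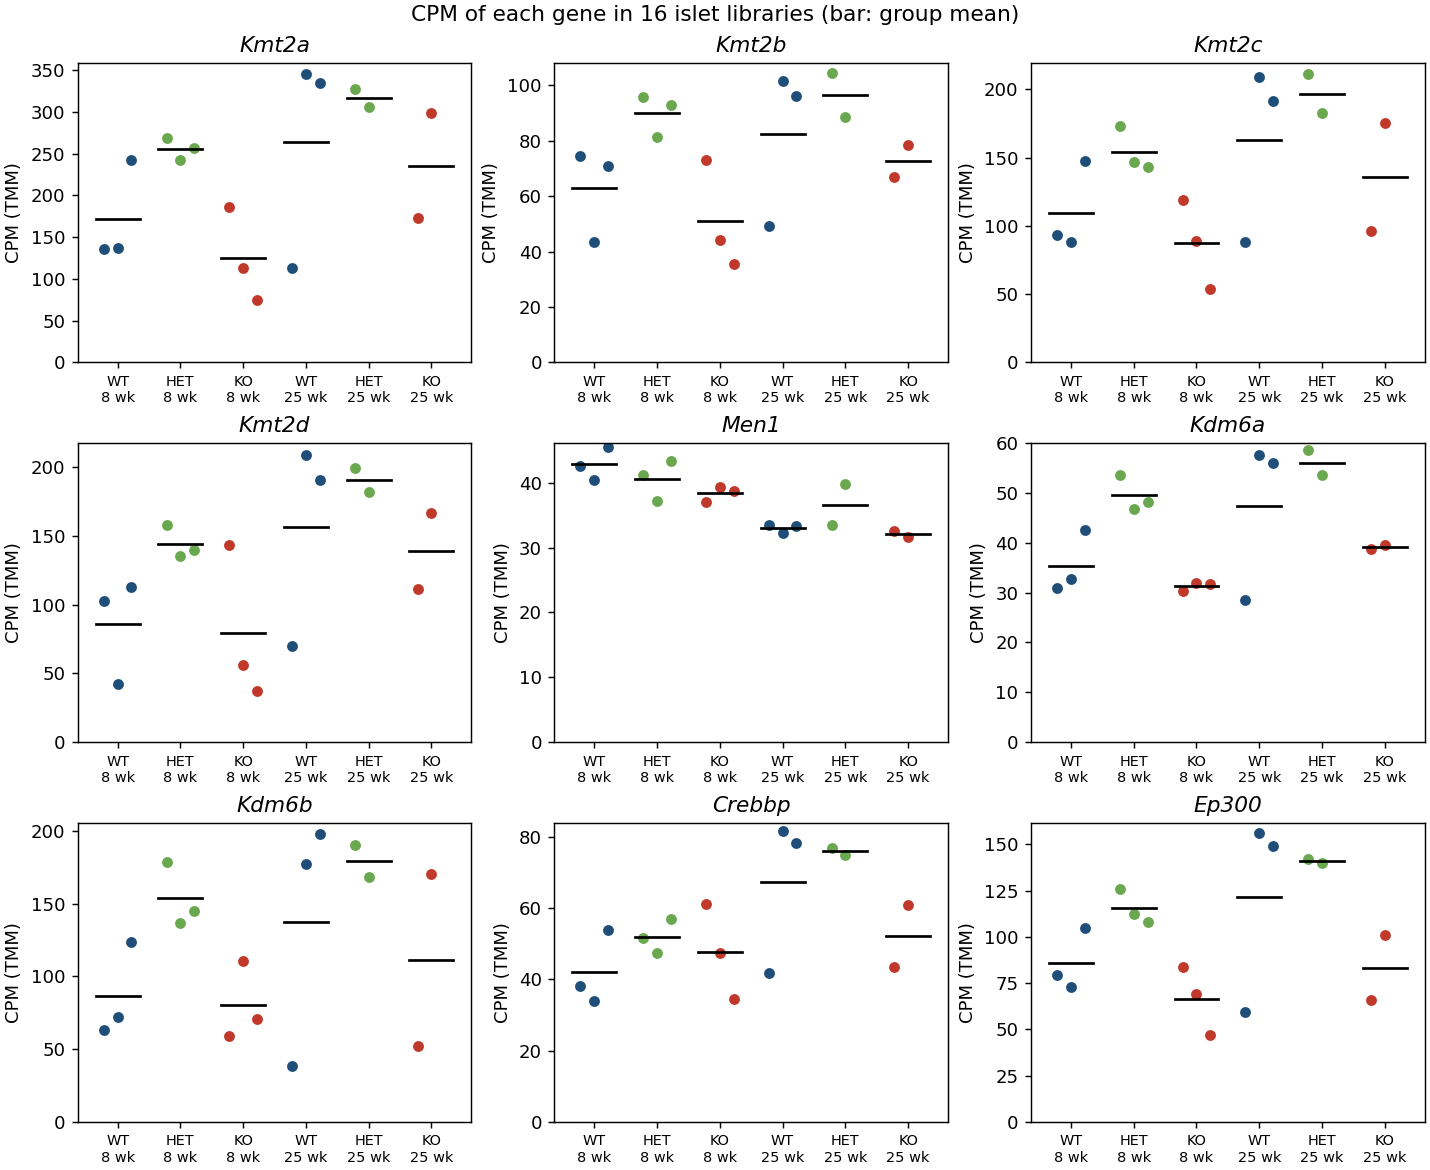
TMM-scaled CPM of the 9 genes in each of 16 libraries (points; bars are group means; linear axes from 0; WT blue, HET green, KO red). With the exception of Men1 the genes split WT at 25 weeks into 1 low and 2 high libraries; Men1 stays between 31.6 and 45.5 CPM.

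Against HET islets the fitted difference of βEedKO was below 0 in all 9 genes at both ages. With library size alone Men1 (0.068) and Crebbp (0.037) turned at 8 weeks. So did Crebbp with a length offset (0.025) or without βEedKO replicate 5 (0.062), and Men1 without HET replicate 3 (0.020). At 25 weeks Kmt2a turned (0.014) with the level of long transcripts as a covariate. None of the 9 passed in edgeR, where 4.74% of 18828 genes did at 8 weeks and 8.36% at 25 weeks, and DESeq2 called 0. At 8 weeks 5 of the 9 had an unadjusted p under 0.05 and at 25 weeks 0. Of the 18828 genes, 4704 and 4583 did. At 8 weeks the median log2 difference was -0.82 beside 0.014 over all genes. All βEedKO libraries lay below all HET libraries in 6 of the 9 (Kmt2a, Kmt2b, Kmt2c, Kdm6a, Kdm6b and Ep300), as 14.5% of all genes did. Kdm6a was the nearest to the threshold, at -0.66 (SE 0.222, adjusted p = 0.0967). It passed when WT replicate 2 of 25 weeks was left out (adjusted p = 0.0336), as 1336 of 18589 genes did. Kmt2a was at -1.04 (SE 0.418, adjusted p = 0.149), Kmt2b at -0.82 (SE 0.307, adjusted p = 0.126) and Ep300 at -0.80 (SE 0.321, adjusted p = 0.149). Without βEedKO replicate 1, Kmt2a (-1.45, adjusted p = 0.0371), Kmt2b (-1.17, adjusted p = 0.0193) and Kmt2d (-1.62, adjusted p = 0.0304) passed, as 4014 of 18532 genes did. With the level of long transcripts as a covariate the differences shrank to -0.56 in Kmt2a, -0.57 in Kmt2b, -0.44 in Kdm6a and -0.42 in Ep300, and that of Crebbp turned from -0.13 to 0.17.

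At 25 weeks all βEedKO libraries lay below all HET libraries in 8 of the 9, Kdm6b being the exception, as 27.9% of all genes did. The differences ran from -0.76 in Ep300 (SE 0.393, adjusted p = 0.258) to -0.19 in Men1 (SE 0.155, adjusted p = 0.492), with a median of -0.52 beside 0.093 over all genes. The fitted difference of HET from WT was above 0 in 8 of the 9 genes at 8 weeks, with a median of 0.50 beside 0.00506 over all genes. All HET libraries lay above all WT libraries in Kmt2b, Kmt2d, Kdm6a, Kdm6b and Ep300, as 10.3% of all genes did. None of the 9 passed in edgeR or DESeq2, and 0% of 18828 genes did in edgeR, where 2743 had an unadjusted p under 0.05 and DESeq2 called 413. Kdm6a, at 0.48 (SE 0.221, adjusted p = 0.333), was the one of the 9 with an unadjusted p under 0.05. At 25 weeks the 9 differences from WT were 0.15 to 0.38 and none passed, as 0% of all genes did (210 at an unadjusted p under 0.05, 3 in DESeq2). Without WT replicate 2 all but that of Men1 were below 0, from -0.12 to -0.020.

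From library to library, 8 of the 9 had levels that went together. The correlation of log2 CPM over the 16 libraries was 0.648 to 0.984 for the 28 pairs without Men1 (median 0.868), and -0.368 to -0.0395 for the 8 pairs with it. The points share groups and libraries, so these are descriptions. The closest pair was Kmt2a and Kmt2c. Among all genes tested, the gene most like each was Kmt2c for Kmt2a (r = 0.984), Arid1a for Kmt2b (0.984), Wdfy3 for Kmt2c (0.985), Hectd4 for Kmt2d (0.982), Gm6855 for Kdm6a (0.969), BC005561 for Kdm6b (0.981), Bsn for Crebbp (0.935), Tsc1 for Ep300 (0.981) and Ccnd1 for Men1 (0.940). Arid1a encodes a subunit of the SWI/SNF remodeller and Ccnd1 is cyclin D1.

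These 8 genes moved with the level of long transcripts in general. The median deviation of 2710 genes with at least 8000 bases of exon, the 9 genes left out, ran from -0.30 (log2) in βEedKO replicate 5 of 8 weeks, through -0.25 in WT replicate 2 and -0.15 in βEedKO replicate 2 of 25 weeks, to 0.15. The 8 genes correlated with it at 0.756 to 0.916 over the 16 libraries and Men1, the shortest gene of the 9, at -0.073. The 2 libraries of 25 weeks were the lowest of their groups in all 8 genes, and βEedKO replicate 5 in 6 of the 8, Kdm6a and Kdm6b being the others. With this covariate the difference from WT moved upward in all 8 genes at both ages. At 8 weeks it came to -0.082 in Kmt2a and -0.090 in Ep300, and it was above 0 in Crebbp (0.42, from 0.18), Kdm6b (0.48) and Kmt2d (0.18). At 25 weeks it came to -0.073 in Kmt2a and -0.49 in Ep300. Whether RNA quality, the share of cell types or regulation sets that level was not tested.

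**Figure D5:**
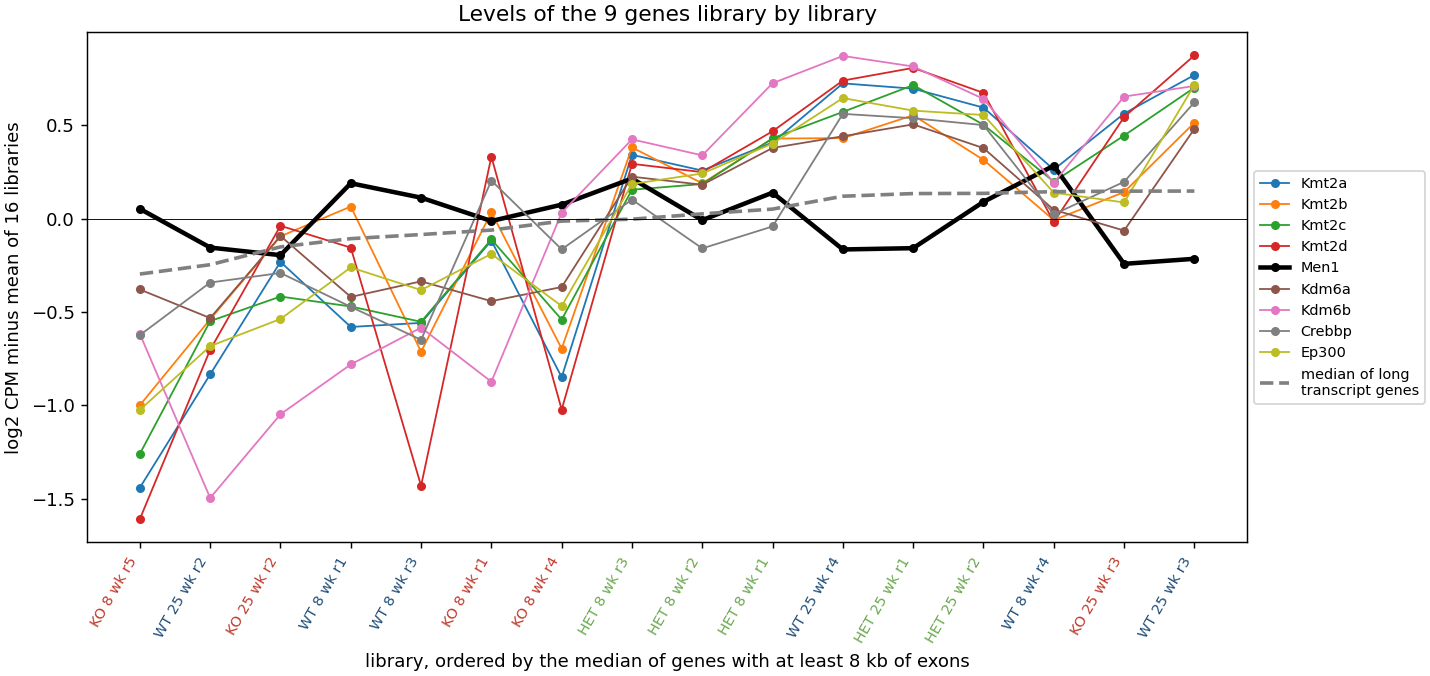
Deviation of log2 CPM from the mean of 16 libraries (vertical axis) for the 9 genes, with libraries ordered by the median of genes with at least 8 kb of exons (dashed). The other 8 genes rise from left to right with that median, which spans -0.30 to 0.15, and Men1 (black) stays close to 0.

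Genes that work with or against these 9 were read in lists. None of the 4 COMPASS core subunits shared by all H3K4 methylases passed against WT at either age; at 25 weeks the largest difference was that of Ash2l (-0.48, SE 0.206, adjusted p = 0.222). Of the subunits particular to single COMPASS complexes, 9 of 10 were tested and none passed, Paxip1, a partner of Kmt2c and Kmt2d, being the farthest at 25 weeks (-0.63, SE 0.342, adjusted p = 0.341). None of 11 other trithorax-group genes passed, nor any of 4 class I deacetylases or 4 PRC2 core subunits; Smarcc2, of SWI/SNF, was at -0.54 (adjusted p = 0.429), Hdac8 at 0.26 (adjusted p = 0.734) and Eed at -0.69. At an unadjusted p under 0.05 these 5 lists held 3 genes at 25 weeks, where 3791 of all 18685 genes were, and DESeq2 called 0. The medians of these lists at 25 weeks ran from -0.46 for the PRC2 subunits to -0.078 for the COMPASS core.

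Of 10 other demethylases 1, and of 7 other acetylases 1, passed as lower in βEedKO at 25 weeks, where 2.02% of all genes did; 2 genes of 55 tested in all lists is near that share. Kdm2b, an H3K36 demethylase that brings a Polycomb complex to CpG islands, fell from 47.1 ± 12.3 CPM (SD, n = 3) in WT to 20.6 ± 1.03 (n = 2), by -1.25 (log2, SE 0.319, adjusted p = 0.0432). Kat2b, the acetylase also called PCAF, fell from 74.9 ± 9.98 to 39.0 ± 7.21 CPM, by -0.997 (SE 0.247, adjusted p = 0.0391). At 8 weeks Kat2b was at -0.59 (adjusted p = 0.479) and Kdm2b at -0.33 (adjusted p = 0.863). Both were also lower than in HET at 25 weeks, by -1.29 (adjusted p = 0.0192) for Kdm2b and -1.05 (adjusted p = 0.0131) for Kat2b. Those calls were lost in 6 and 5 of 23 alternatives, among them library size alone (adjusted p = 0.109 and 0.0779), the replicate block (0.0735 and 0.0919) and leaving out either HET library or βEedKO replicate 3 of 25 weeks. In 10 of 20 alternatives the call of Kat2b against WT was lost, and in 9 of 20 that of Kdm2b. The replicate block ended both calls (adjusted p = 0.0698 for Kat2b and 0.0523 for Kdm2b), as did library size alone (0.262 and 0.261). For both, leaving out WT replicate 4 or βEedKO replicate 4 of 8 weeks, or WT replicate 3 or 4 or either βEedKO library of 25 weeks, was enough, as was WT replicate 3 of 8 weeks for Kat2b and βEedKO replicate 5 for Kdm2b, and the adjusted p reached 0.270 and 0.261. The log2 differences stayed between -1.22 and -0.82 for Kat2b and between -1.44 and -1.004 for Kdm2b.

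The 6 listed genes known from other work to need menin and Kmt2a went in different directions at 25 weeks. Cdkn1b (p27), a cell cycle inhibitor, was at -0.25 (adjusted p = 0.623) and its relative Cdkn2c (p18) at 0.24 (adjusted p = 0.834), and Meis1 at -0.71 (SE 0.294, adjusted p = 0.206). The other 3, Hoxa7, Hoxa9 and Hoxa10, rose, where 4.58% of all genes did, and their starts were in bivalent state M. The mesenchymal and duct markers given above were higher in the same libraries, and their part in these values and in those of Kdm2b and Kat2b was not tested. Hoxa9 went from 2 reads over the 3 WT libraries to 728 over the 2 βEedKO libraries, 296-fold per library size (95% counting interval 81.5 to 2445; edgeR adjusted p = 0.00187). Hoxa7 went from 3 reads to 276, or 74.7-fold (25.3 to 364; adjusted p = 0.0291), and each of the 5 libraries of 25 weeks was needed for its call (adjusted p up to 0.120). Hoxa10 had 0 reads in WT and 881 in βEedKO, at least 238-fold higher against a floor of 3 reads over the group (adjusted p = 0.0082; 0.0588 in DESeq2). The median of the list was 3.10 beside 0.029 over all genes, a midpoint between Cdkn2c (0.24) and Hoxa7 (5.96) with no gene near it. Setting Hoxa10 to its bound could not change that value. The list was chosen with earlier results of these data known, so its median is a description. At 8 weeks none of the 6 passed, with a median of 0.089.

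Against HET at 8 weeks, 4 of the 55 genes of these lists passed, all as lower, where 1.14% of all genes did; they are named after their values were seen: Paxip1 (-1.16, adjusted p = 0.0399), Kdm2b (-0.97, adjusted p = 0.0415), Kat2b (-0.72, adjusted p = 0.0436) and Kat6b (-0.95, adjusted p = 0.0468). All 4 lost the call with the level of long transcripts as a covariate, with the replicate block (which left 1 of all genes passing) and with library size alone, and each lost it in 13 to 16 of 23 alternatives.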

How the data were processed

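Whole islets of 16 libraries were measured by bulk RNA-seq. The authors deposited raw counts per gene, made with TopHat2 2.0.13 on GRCm38 and featureCounts (Subread 1.5.0-p1) on Gencode M9; use of strand is not stated and the kit does not mark it. A read per gene can be lost or shared where genes overlap. All 16 count columns were used (0 unused). The deposited state letters come from EpicSeg on averaged ChIP-seq of WT islets, in 200 bp bins, with no level. Other data types were not analysed here.

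Counts were tested with edgeR 4.0.16 under R 4.3.3 (TMM, filterByExpr, quasi-likelihood test, Benjamini-Hochberg adjustment over all genes). WT and βEedKO were compared in a fit of 4 groups and 11 libraries (18685 genes, biological coefficient of variation 0.456), and comparisons with HET or of age over WT and HET in a fit of all 16 (18828 genes). The SE is the absolute log2 fold change over the square root of F. The script was tested on simulated counts. Depth ran from 4645393 to 22925359 reads; 95% counting intervals and the floor of 3 reads cover counting error only. Of 47937 genes, 47224 were named by identifier from a later GENCODE release of the same build. Exon lengths came from it. No pair of libraries of the same group agreed within sampling noise, and pairs across groups were not checked for this.

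Named are all 9 genes, Eed, each list gene past an adjusted p of 0.05 against WT or else the farthest at 25 weeks, and the gene most like each of the 9. The genes and lists were chosen with earlier results of these data known. No label ties a replicate number to a litter. Same-numbered WT and βEedKO libraries deviated from their group means together (r = 0.457 and 0.163 at 8 weeks, 0.176 and 0.255 at 25). Pairs of unlike number were not compared, so these values do not show that the number marks a batch. A blocked fit was one alternative. Others were DESeq2 1.42.0, other scaling factors, no filter, a length offset, pooled controls, and each library left out. The level of long transcripts as a covariate, the paralogue ratios and the age comparison over WT and HET were chosen after seeing the data.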

Additional observations from a re-analysis of the deposited data

How the results depend on the processing

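For 9 comparisons the number of the 9 genes called stayed at 0 under every alternative but these. For βEedKO against HET at 8 weeks it was 0 to 3 when a library was left out, the 3 coming where 4014 of 18532 genes passed. At 25 weeks it was 1 (Kdm6b, -1.81, adjusted p = 0.0377) with the replicate number as a block. Same-numbered HET and βEedKO libraries did not deviate together (r = -0.00374 and -0.015), and the block changed no call of the 9 against WT; it ended those of Kat2b and Kdm2b at 25 weeks and took the count over all genes from 81 to 0 against WT and from 892 to 1 against HET at 8 weeks, and from 1574 to 429 against HET at 25 weeks.

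With library size alone, differences from WT turned to 0.10 (Kmt2d), 0.033 (Men1), 0.00415 (Kdm6a) and 0.058 (Kdm6b) at 8 weeks and to 0.14 (Kmt2a), 0.041 (Kmt2b), 0.048 (Kmt2c), 0.095 (Kmt2d), 0.14 (Men1) and 0.12 (Kdm6b) at 25 weeks, as the median of all genes moved to 0.20 and 0.27; those from HET at 8 weeks turned to 0.068 (Men1) and 0.037 (Crebbp). With the replicate block, differences turned to 0.14 (Kmt2a), 0.099 (Kmt2d) and 0.13 (Kdm6b) against WT at 25 weeks, to 0.020 for Men1 in HET against WT at 8 weeks, and to -0.39 for Kdm6b with age. With the level of long transcripts as a covariate they turned to 0.18 (Kmt2d) and 0.48 (Kdm6b) against WT at 8 weeks, to 0.17 (Crebbp) against HET at 8 weeks, to 0.014 (Kmt2a) at 25 weeks, and to -0.035 (Kmt2a), -0.025 (Kmt2c), -0.045 (Crebbp) and -0.023 (Ep300) in HET against WT at 25 weeks. A length offset turned Crebbp against HET at 8 weeks to 0.025, and HET as added control turned the ratio of Kdm6a to Kdm6b from -0.023 to 0.15. The cause was not tested.

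Leaving out each library in turn gave differences of both signs. In βEedKO against WT at 8 weeks they ran from -0.86 to 0.20 for Kmt2d, -0.42 to 0.25 for Kdm6b and -0.031 to 0.40 for Crebbp. In βEedKO against WT at 25 weeks they ran from -0.67 to 0.097 for Kmt2a, -0.81 to 0.025 for Kmt2c, -0.59 to 0.019 for Kmt2d and -1.45 to 0.22 for Kdm6b. In HET against WT at 25 weeks they ran from -0.10 to 0.50 for Kmt2a, -0.035 to 0.41 for Kmt2b, -0.027 to 0.49 for Kmt2c, -0.068 to 0.55 for Kmt2d, -0.020 to 0.40 for Kdm6a, -0.064 to 0.72 for Kdm6b, -0.075 to 0.33 for Crebbp and -0.12 to 0.43 for Ep300. In βEedKO against HET at 8 weeks they ran from -0.14 to 0.020 for Men1 and -0.34 to 0.062 for Crebbp.

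DESeq2 called the same of the 9, none. With 2 or 3 libraries a group, most intervals of the 9 against WT, but not those of Men1, reach below -1. Those of Kmt2d and Kdm6b also reach above 1.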
